A study of Mus musculus with 36 samples.

Results

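Brain libraries of wild-type mice given dm-αKG (WT-aKG, n = 8) were compared with those of wild-type mice given vehicle (WT-Veh, n = 10), gene by gene. These 18 libraries were chosen by their labels, out of 36 in the series. The other 18 came from mice lacking Gpt2, given vehicle (KO-Veh, n = 10) or dm-αKG (KO-aKG, n = 8). All wild types carried the genotype Gpt2-WT. The dose was 600 mg per kg, injected into the peritoneum, and the vehicle is not named. Brains were taken and frozen on postnatal day 19, and 10 mg of each were extracted. The sources used here do not give the strain, the sex, the brain region or the number and timing of injections. No label says that each library came from a separate mouse, and p-values therefore reflect only how far these samples vary.

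dm-αKG is the dimethyl ester of α-ketoglutarate, a form that crosses cell membranes and is cleaved inside the cell to α-ketoglutarate. Within mitochondria the α-ketoglutarate dehydrogenase complex oxidises this acid in the tricarboxylic acid (TCA) cycle, and the electrons pass to the respiratory chain. In the brain α-ketoglutarate is also the carbon skeleton of glutamate, and transaminases such as Gpt2 interconvert them. A large family of dioxygenases, among them the TET enzymes that oxidise methylcytosine, the JmjC histone demethylases and the prolyl hydroxylases, uses it as a co-substrate.

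No gene passed an adjusted p under 0.05 between the treated and the vehicle wild types. By edgeR's quasi-likelihood test 0 of 16255 genes tested were called (0%), and the smallest adjusted p was 0.135. At an unadjusted p under 0.05 there were 1389 genes (8.55%), of which 750 were higher with dm-αKG (4.61%) and 639 lower (3.93%). With a score of cerebellum markers as a covariate 1 gene was called (0.00615%), the mitochondrial ribosomal protein gene Mrps28, which rose. That fit had 2013 genes at an unadjusted p under 0.05 (12.4%), 1032 higher (6.35%) and 981 lower (6.04%). limma-voom without covariates also called 0 genes, with 1392 at an unadjusted p under 0.05. DESeq2 called 90 of the 5540 genes for which it gave an adjusted p (1.62%), 67 higher and 23 lower, with absolute log2 fold changes of 0.18 to 0.57. With the cerebellum score DESeq2 called 223 of 6170 genes (3.61%), and edgeR with 5 region scores called 23 (0.141%). The half-width of the 95% interval of a gene's log2 fold change was 0.35 at the median, and in 87.8% of genes the whole interval lay within 1 log2 unit of 0.

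The libraries held 10.0 to 12.8 M counts with vehicle and 7.52 to 13.3 M with dm-αKG. The markers of brain cells were present throughout: neuron markers averaged 7.18 to 7.95 log2 CPM (counts scaled to a common library size by TMM) in WT-Veh and 7.18 to 7.82 in WT-aKG, and astrocyte markers 6.53 to 7.45 and 6.86 to 7.57. The tissue pieces differed in region. The cerebellum score, the mean log2 CPM of 20 markers, ran from 3.24 to 7.31 in WT-Veh and from 2.32 to 7.09 in WT-aKG. It exceeded the mean over the 36 libraries by more than 1 log2 unit in 3 of 10 vehicle and 4 of 8 treated libraries, the cerebellum-rich ones. The group means of the score were close, 4.56 ± 1.79 (SD, n = 10) and 4.55 ± 2.201 (SD, n = 8). Xist, the transcript of the inactive X chromosome, exceeded the Y-linked Ddx3y in 2 of 10 vehicle and 5 of 8 treated libraries, so the sexes were unevenly spread. Fewer cells of a type and less RNA per cell cannot be told apart in such bulk samples.

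4 genes are described first: Mrps36, Mrps28, Ndufb3 and Bcl6. In GRCm38 (GENCODE vM21) Mrps36 spans chr13:100735955-100744659 on the minus strand, Mrps28 chr3:8802146-8923918 on the minus strand, Ndufb3 chr1:58586384-58595964 on the plus strand and Bcl6 chr16:23965052-23988852 on the minus strand. The 100 bases before the RefSeq start site (GRCm38.p6) are shown for 3 genes, of which 2 were higher with dm-αKG and 1 was lower. The set of promoter windows used here held none for Mrps28. They lie at chr13:100744660-100744759 on the minus strand for Mrps36, at chr1:58586297-58586396 on the plus strand for Ndufb3, and at chr16:23988853-23988952 on the minus strand for the first of 2 listed starts of Bcl6. Each is written 5′ to 3′ along the gene, with capitals for the CCAAT box (CCAAT, or ATTGG when it lies on the other strand), the GC box (GGGCGG) and the E-box (CACGTG), each searched on both strands.
Mrps36: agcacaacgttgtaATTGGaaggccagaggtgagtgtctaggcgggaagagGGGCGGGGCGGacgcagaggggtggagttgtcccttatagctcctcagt
Ndufb3: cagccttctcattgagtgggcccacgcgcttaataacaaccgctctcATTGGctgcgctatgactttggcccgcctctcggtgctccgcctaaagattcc
Bcl6: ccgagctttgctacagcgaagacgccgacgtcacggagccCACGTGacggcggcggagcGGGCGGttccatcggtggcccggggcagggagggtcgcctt
The Mrps36 window held 1 CCAAT box and 2 GC boxes that overlap each other, the Ndufb3 window 1 CCAAT box, and the Bcl6 window 1 GC box and 1 E-box. Among 32851 such windows of mouse genes, 18.9% held a CCAAT box, 24.7% a GC box and 3.17% an E-box. The last bases of the Ndufb3 window lie within the GENCODE span given for that gene, since its RefSeq start is further downstream. The matches are descriptions of these letters only.

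Mrps36 encodes a protein first listed with the small subunit of the mitochondrial ribosome and known as a component of the α-ketoglutarate dehydrogenase complex, where it tethers the E3 subunit. Its level in WT-Veh was 23.2 CPM at the lowest, 24.99 at the median and 30.4 at the highest. In WT-aKG these values were 31.0, 33.4 and 39.8 CPM. Every treated library was thus above every vehicle library. The means were 26.0 ± 2.43 CPM (SD, n = 10) and 34.4 ± 3.33 CPM (SD, n = 8), and the log2 fold change was 0.40 (95% interval 0.23 to 0.57). Mrps36 had the smallest p of all genes, yet its adjusted p in edgeR was 0.135, and it was 0.0790 with the cerebellum score as a covariate. DESeq2 gave an adjusted p of 0.00273, and edgeR with 5 region scores gave 0.0246. Its processed copy Mrps36-ps1 had a log2 fold change of 0.46 and may share reads with it, so the split between them is uncertain.

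Mrps28 encodes a protein of the small mitoribosomal subunit, which translates the respiratory chain mRNAs of the mitochondrial genome. WT-Veh libraries held 19.8 CPM at the lowest, 22.8 at the median and 28.8 at the highest, and WT-aKG libraries 24.8, 30.4 and 44.2 CPM. The groups overlapped, with 5 of 8 treated libraries above the highest vehicle library and all 8 above the vehicle median. The log2 fold change was 0.44 (95% interval 0.26 to 0.63), with an adjusted p of 0.135 in edgeR. With the cerebellum score as a covariate it was 0.43 (SE 0.074), and the adjusted p of 0.0176 made Mrps28 the single gene called. The call was lost on leaving out any 1 of WT-Veh 2, 3, 6, 7 or 8 or WT-aKG 3, 5 or 7, with adjusted p-values up to 0.119. It was also lost without the 9 cerebellum-rich libraries of the series, at a log2 fold change of 0.30. In DESeq2 without covariates the adjusted p of Mrps28 was 0.00273, and in edgeR with 5 region scores it was 0.00782.

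Ndufb3 encodes an accessory subunit of complex I, the NADH dehydrogenase at the entry of the respiratory chain. Its level was 103.9 CPM at the lowest, 113.4 at the median and 139.5 at the highest in WT-Veh. In WT-aKG it was 117.9 CPM at the lowest, 147.0 at the median and 181.1 at the highest. 4 of 8 treated libraries exceeded the highest vehicle library, and all 8 exceeded the vehicle median. The log2 fold change was 0.37 (95% interval 0.19 to 0.55), with an adjusted p of 0.171 in edgeR and of 0.0736 with the cerebellum score. DESeq2 gave an adjusted p of 0.00846, and edgeR with 5 region scores gave 0.0246.

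Bcl6, a transcriptional repressor known in neurons for shutting off Notch targets during differentiation, was lower with dm-αKG. WT-Veh libraries held 10.7 CPM at the lowest, 14.99 at the median and 27.8 at the highest, and WT-aKG libraries 8.37, 11.0 and 12.5 CPM. All treated libraries lay below the vehicle median, and 3 of 8 lay below the lowest vehicle library. The log2 fold change was −0.60 (95% interval −0.94 to −0.25), with an adjusted p of 0.224 in edgeR and of 0.0952 with the cerebellum score. DESeq2 without covariates did not call Bcl6, and edgeR with 5 region scores gave an adjusted p of 0.0442. 1 vehicle library, WT-Veh-1, held the value of 27.8 CPM, and without it the log2 fold change was −0.47. The 11 genes of a list of BCL6 and its corepressors had a median of −0.10, with 3 of 11 above 0. At an unadjusted p under 0.05, 3 of 11 were lower, Bcl6 itself being a member, beside 3.93% of all genes tested.

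**Figure D1:**
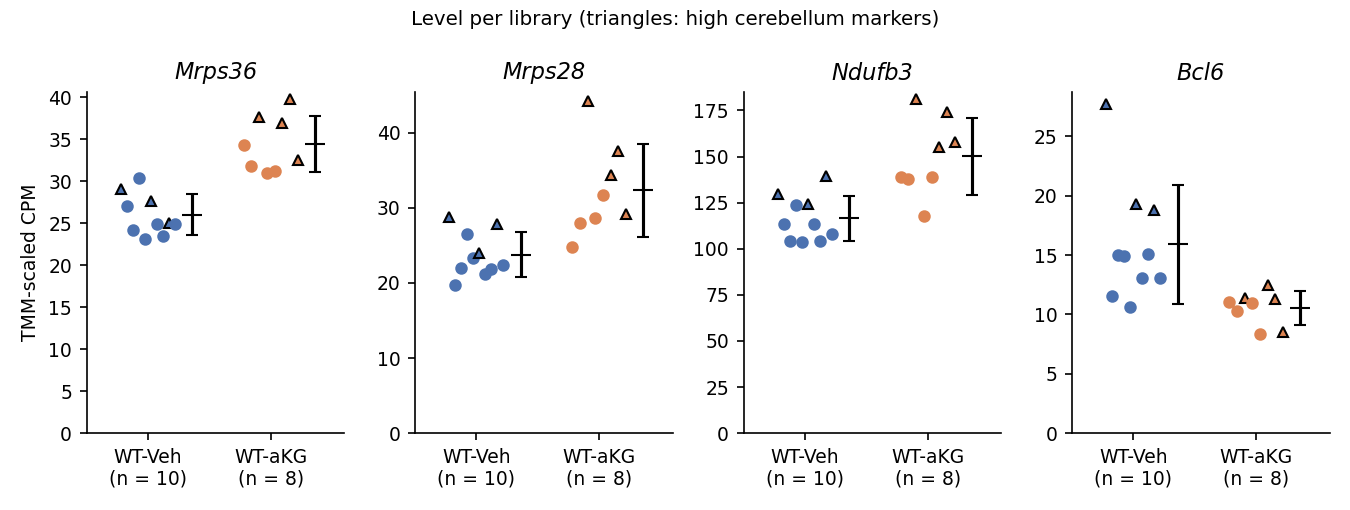
Level of Mrps36, Mrps28, Ndufb3 and Bcl6 in TMM-scaled CPM in each wild-type library, with the mean and SD as bars and triangles for cerebellum-rich libraries. The Mrps36 groups do not overlap (highest vehicle 30.4, lowest treated 31.0 CPM), while the other 3 genes overlap between groups.

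Both cerebellum-rich and other pieces showed the same direction in these 4 genes. Among the cerebellum-rich libraries (3 vehicle, 4 treated) the difference in mean log2 CPM was 0.43 for Mrps36, 0.42 for Mrps28 and 0.35 for Ndufb3. Among the rest (7 vehicle, 4 treated) it was 0.34, 0.33 and 0.28. Bcl6 differed by −0.99 in the cerebellum-rich libraries and by −0.38 in the rest. The vehicle libraries rich in cerebellum averaged 4.44 log2 CPM of Bcl6 and the other vehicle libraries 3.75, whereas the treated averages were 3.46 and 3.36. With Xist above Ddx3y (2 vehicle, 5 treated) the differences were 0.32 for Mrps36, 0.38 for Mrps28, 0.33 for Ndufb3 and −0.89 for Bcl6. With Ddx3y above Xist (8 vehicle, 3 treated) they were 0.45, 0.35, 0.37 and −0.41. By p in edgeR without covariates Mrps36, Mrps28, Ndufb3 and Bcl6 rank 1, 2, 17 and 95 of 16255 genes in these same libraries. A shared direction in the strata was therefore likely in advance and is a description only. How many of all genes keep their direction was not counted, and these strata were not tested separately.

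**Figure D2:**
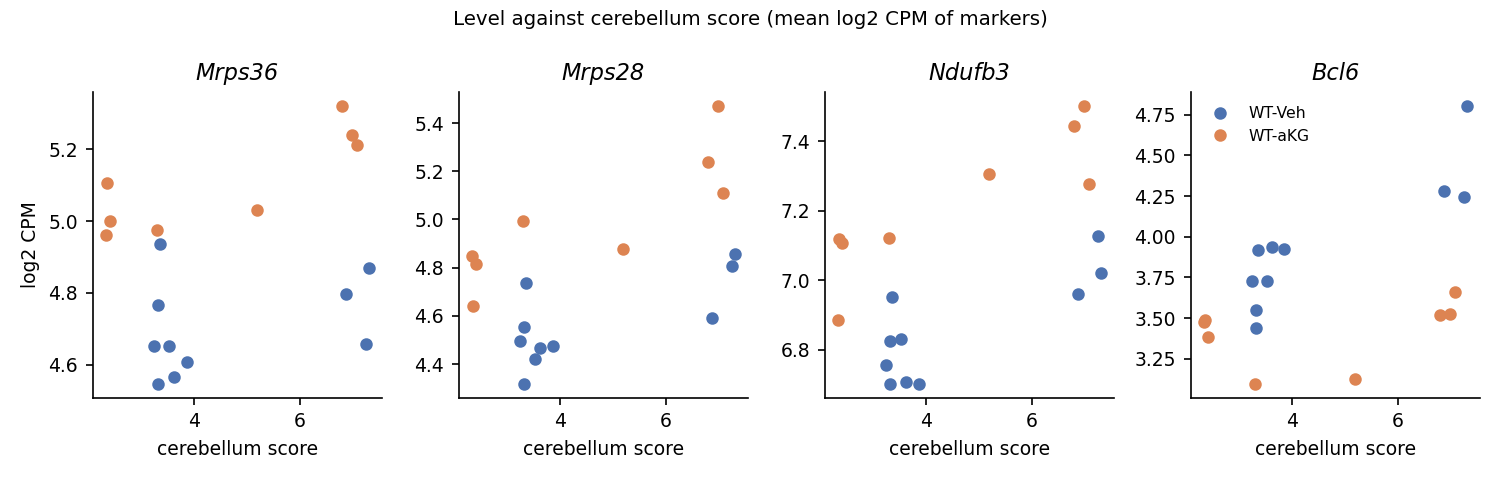
log2 CPM of the 4 genes against the cerebellum score of each wild-type library, coloured by treatment. At scores of 6 and over the treated libraries lie above the vehicle libraries for Mrps36, Mrps28 and Ndufb3, and below them for Bcl6, whose vehicle libraries average 4.44 there and 3.75 elsewhere.

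All 10 genes with the smallest p-values were higher with dm-αKG, and none passed the adjusted threshold. After Mrps36 and Mrps28 came Sem1, a small subunit of the proteasome lid, with 186 to 228 CPM in WT-Veh and 231 to 306 in WT-aKG and a log2 fold change of 0.32. Elob, the elongin B of elongin and cullin complexes, had a log2 fold change of 0.28. Nop10, a protein of the H/ACA small nucleolar ribonucleoproteins, had 116 to 166 CPM in WT-Veh, 169 to 193 in WT-aKG and a log2 fold change of 0.36. The log2 fold changes of Cyb5a (cytochrome b5), Polr2l (a subunit shared by the nuclear RNA polymerases), Dalrd3 and Usp50 were 0.35, 0.35, 0.32 and 0.36. The adjusted p-values of these 10 genes in edgeR ran from 0.135 to 0.149 without covariates.

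The 2 groups did not overlap in 11 genes that were higher with dm-αKG (0.0677% of genes tested) and in 2 that were lower (0.0123%). Apart from Mrps36, Sem1 and Nop10 the higher ones were Coa3, Ndufa8, Ndufc1, Naxd, Rbx1, Tatdn1, Gm12350 and 4933434E20Rik, named here after their values were seen. Coa3 is an assembly factor of cytochrome c oxidase, and its highest vehicle library held 112.4 CPM against 114.8 in its lowest treated library. Ndufa8 and Ndufc1 are complex I subunits, with log2 fold changes of 0.30 and 0.26. The lower ones were Hdlbp, an RNA-binding protein, at −0.32, and Asb7, a substrate adaptor of a ubiquitin ligase, at −0.22.

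Most nuclear genes of the respiratory chain were somewhat higher with dm-αKG, each by a small amount. In complex I, 33 of 36 subunit genes had a log2 fold change above 0, with a median of 0.28, against 47.8% of all genes tested and a median of −0.01. There were 24 of 36 higher and 0 lower at an unadjusted p under 0.05, beside 4.61% and 3.93% of all genes, and 0 passed the adjusted threshold. The mean log2 CPM of the list lay between 7.25 and 7.71 in WT-Veh and between 7.61 and 7.96 in WT-aKG, so the groups overlapped. Complex I assembly factors had a median of 0.23 with 14 of 15 above 0, led by Ndufaf6 at 0.39. In complex II, 7 of 8 genes were above 0 with a median of 0.21. Sdhaf2, which inserts the flavin of that complex, had a log2 fold change of 0.29.

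Further along the chain the values were alike. Complex III genes had a median of 0.22 (8 of 9 above 0), led by Uqcrb, a small structural subunit, at 0.35. All 11 complex IV genes were above 0, with a median of 0.29. Cox7c, a small subunit of that complex, ran from 530 to 863 CPM in WT-Veh and from 717 to 1353 CPM in WT-aKG, and 4 of 8 treated libraries exceeded every vehicle library. The ATP synthase list had a median of 0.26 (15 of 17 above 0), and its member Atp5mf, a subunit of the membrane part, was at 0.42. The 13 protein genes of the mitochondrial genome had a median of 0.02. In either direction 0 of 13 had an unadjusted p under 0.05, beside 8.55% of all genes tested. mt-Nd3, the member with the smallest p, had a log2 fold change of 0.20 with an SE of 0.25.

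Ribosomal protein genes lay on the same side. The small mitoribosomal subunit had 27 of 30 genes above 0 and a median of 0.17. At an unadjusted p under 0.05, 12 of 30 were higher, beside 4.61% of all genes tested. The large subunit had 48 of 52 above 0 with a median of 0.18, led by Mrpl27 at 0.30. All 47 genes of cytosolic ribosomal proteins were above 0, with a median of 0.21. Of these, 9 were higher at an unadjusted p under 0.05, beside the same 4.61% of all genes. Rpl18, the one with the smallest p, was at 0.27. Hspe1, the mitochondrial co-chaperonin, had a log2 fold change of 0.46, from 108.7 ± 15.8 CPM (SD, n = 10) to 149.0 ± 25.8 CPM (SD, n = 8). The 15 mitochondrial chaperones and proteases of its list had a median of 0.01, with 8 above 0. Ppargc1a, the coactivator known for driving mitochondrial biogenesis, was at −0.24, and its list of 15 regulators had a median of 0.03. None of these genes passed the adjusted threshold in edgeR without covariates. DESeq2 called 90 of 5540 genes (1.62%), 67 of them higher. The higher ones included 15 genes of the mitochondrial lists and 0 of the cytosolic ribosomal list. How many genes of these lists had an adjusted p in DESeq2 was not counted, so their shares cannot be set beside that of all genes.

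**Figure D3:**
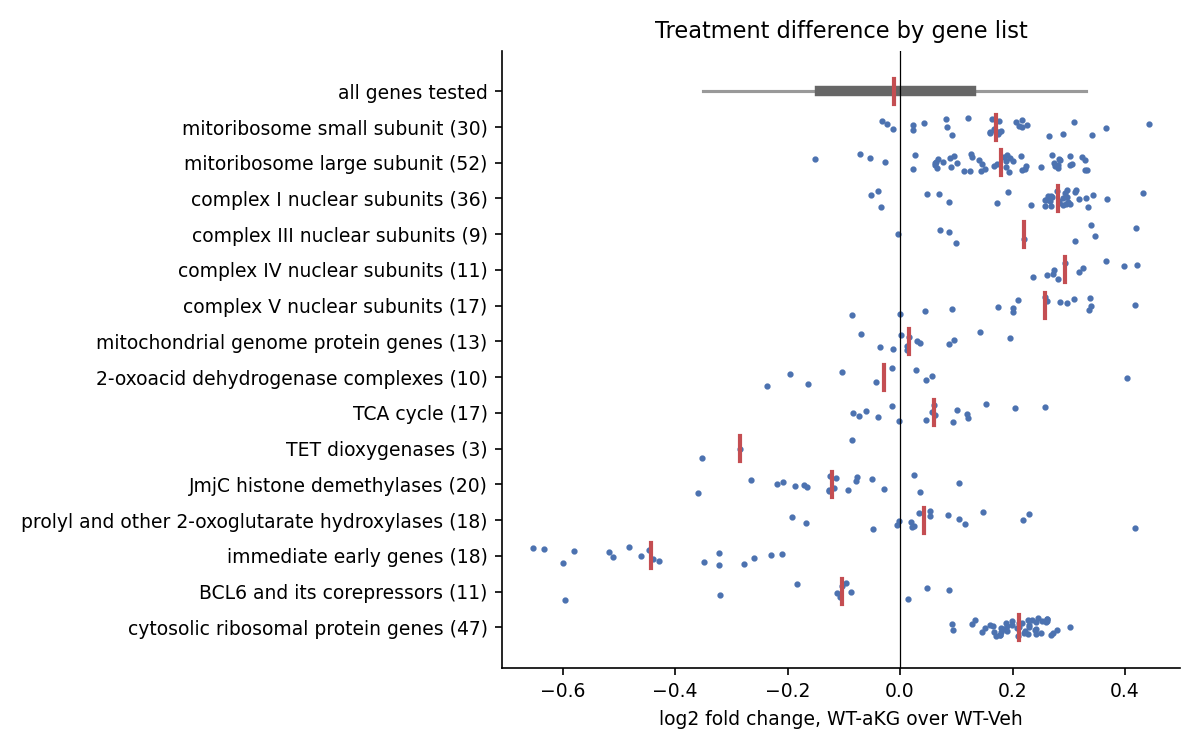
log2 fold change of WT-aKG over WT-Veh for each gene (points) of 15 lists, with list medians as red bars; the top line shows all genes tested, with the 25th to 75th percentile as the thick bar and the 5th to 95th percentile as the thin one. The lists of nuclear respiratory chain, ATP synthase and ribosomal protein genes have medians of 0.17 to 0.29. The protein genes of the mitochondrial genome have one of 0.02 and the immediate early genes one of −0.44.

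Genes with short transcripts were higher with dm-αKG whether or not they belonged to these lists. The length used was that of the longest protein-coding transcript in GENCODE vM21, which 83.7% of tested genes had. Genes under 1000 bases had a median log2 fold change of 0.20 (728 genes, 85.7% above 0) and those of 5000 bases and over −0.12 (3047 genes, 23.7% above 0). Outside the mitochondrial and ribosomal lists the medians of the 5 length classes were 0.19, 0.07, −0.01, −0.06 and −0.12, from the shortest to the longest. Within those lists they were 0.26, 0.17, 0.18, 0.14 and 0.16, the last from 4 genes. Many list members are short, but not in every list. The median length was 977 bases for complex I, 659 for complex IV, 838 for ATP synthase and 946 for cytosolic ribosomal proteins. It was 1363 for complex III and 1300.5 and 1368.5 for the small and large mitoribosomal subunits. For complex I assembly factors it was 1676 and for complex II 2695, against 3216 over all genes. Mrps36, Mrps28 and Ndufb3 measure 701, 783 and 763 bases, and Bcl6 3525.

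A score per library, the mean log2 CPM of short genes minus that of long genes, both outside the lists, was higher in the treated group with overlapping ranges. It ran from −0.19 to 0.16 in WT-Veh (mean −0.06 ± 0.12, SD, n = 10) and from 0.08 to 0.36 in WT-aKG (0.22 ± 0.10, SD, n = 8). With this score as a covariate, chosen after the data were seen, the list medians were 0.12 for complex I and 0.10 for complex IV. They were 0.11 and 0.06 for the small and large mitoribosomal subunits and −0.17 for cytosolic ribosomal proteins. For complex I assembly factors, complex II, complex III and ATP synthase they were 0.16, 0.04, 0.06 and 0.10. Mrps36 was then at 0.31, Mrps28 at 0.35, Ndufb3 at 0.31 and Bcl6 at −0.32, with adjusted p-values of 0.751, 0.751, 0.751 and 0.754 in edgeR. The same fit also moved lists of region and cell type. The cerebellum markers then had a median of 1.82 (20 of 20 above 0), the oligodendrocyte markers 0.90 (16 of 16) and the cerebral cortex markers −0.50 (1 of 15). The protein genes of the mitochondrial genome were at −0.58 (0 of 13). This covariate therefore does not separate transcript length from region content. The part of transcript length in these differences was not tested.

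**Figure D4:**
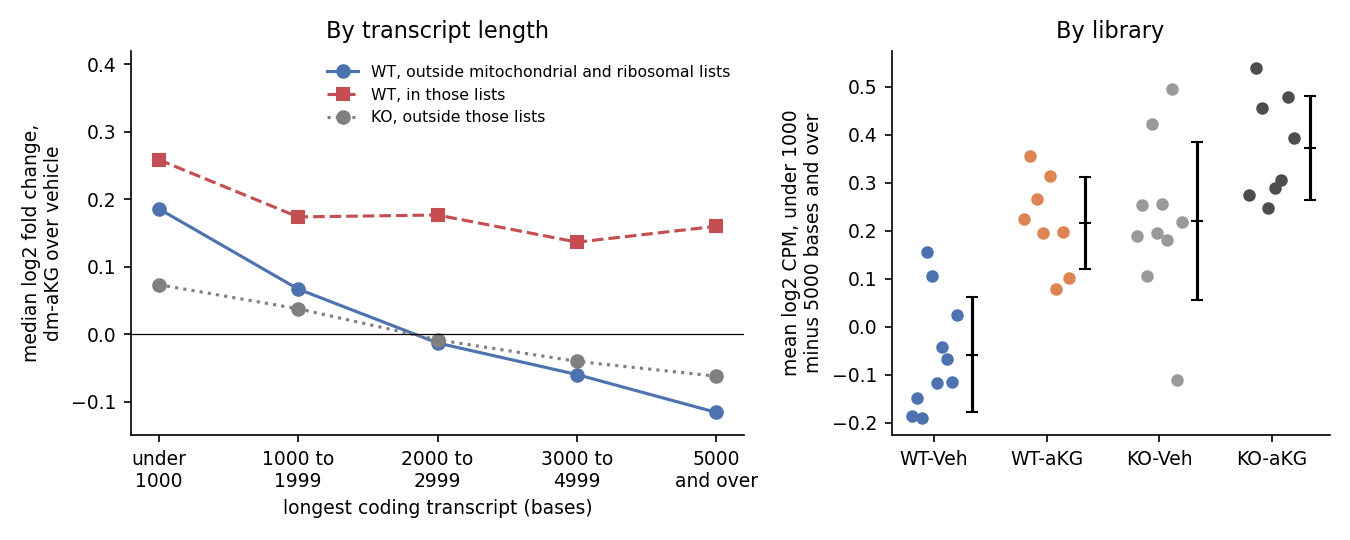
Left, median log2 fold change of dm-αKG over vehicle by class of transcript length in bases, for wild types outside and within the mitochondrial and ribosomal lists and for knockouts. Right, the short-minus-long score of each library by group with mean and SD: WT-Veh averages −0.06 and WT-aKG 0.22.

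The lists of keto acid dehydrogenases and TCA cycle enzymes had medians near 0. Beside Mrps36, the main subunits of the α-ketoglutarate dehydrogenase complex showed small differences. Ogdh, its E1 subunit, was at 121 ± 20.0 CPM with vehicle (SD, n = 10) and 126 ± 17.3 CPM with dm-αKG (SD, n = 8), a log2 fold change of 0.06 (95% interval −0.13 to 0.24). Dlst, the E2 subunit, was at 0.05 (−0.12 to 0.21) and Dld, the E3 subunit, at −0.04 (−0.34 to 0.25). Ogdh, Dlst and Dld were named after their values were seen. The 10 genes of the keto acid dehydrogenase complexes had a median of −0.03, with 4 above 0, and the 17 TCA cycle genes a median of 0.06, with 11 above 0. In the TCA list 2 of 17 genes were higher at an unadjusted p under 0.05, beside 4.61% of all genes tested. Sdhd, a membrane anchor of succinate dehydrogenase, had the smallest p of that list and a log2 fold change of 0.26.

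Gpt2 itself was at 30.2 ± 5.61 CPM with vehicle (SD, n = 10) and 32.3 ± 3.94 CPM with dm-αKG (SD, n = 8). Its log2 fold change was 0.10 (95% interval −0.23 to 0.43), with an adjusted p of 0.980 in edgeR. The 20 tested enzymes that interconvert α-ketoglutarate and glutamate had a median of −0.01, with 9 above 0. The 16 transporters of α-ketoglutarate and glutamate had a median of −0.09, with 5 above 0, and among them Slc25a12, the aspartate and glutamate carrier of the inner mitochondrial membrane, was at −0.20.

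Dioxygenase genes were lower or near 0 depending on the family. All 3 TET genes were below 0, with a median of −0.29. Tet1 was lowest at −0.35: WT-Veh libraries held 12.9 to 28.2 CPM and WT-aKG libraries 10.1 to 17.9 CPM, with 3 of 8 treated libraries below every vehicle library. The JmjC histone demethylases had a median of −0.12, with 3 of 20 above 0. Kdm5b, which removes methyl groups from lysine 4 of histone H3, was at −0.22. The JmjC and TET genes are long, with median lengths of 5715 and 10904 bases. With the length score as a covariate the JmjC median was 0.10, with 17 of 20 above 0, and that of the TET genes −0.09. The prolyl and related hydroxylases had a median of 0.04 (13 of 18 above 0), with Phyh, which hydroxylates phytanoyl-CoA in peroxisomes, at 0.23. The AlkB homologues had a median of −0.03 (3 of 9 above 0), with Alkbh6 at 0.27. At an unadjusted p under 0.05 there were 1 of 3 TET, 1 of 20 JmjC, 1 of 18 hydroxylase and 2 of 9 AlkB genes, beside 8.55% of all genes tested, and 0 passed the adjusted threshold.

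All 18 immediate early genes, which neuronal activity or handling stress induces within minutes, were below 0, with a median of −0.44. At an unadjusted p under 0.05, 3 of 18 were lower, beside 3.93% of all genes tested. Jun, a subunit of the AP-1 transcription factor, had the smallest p. WT-Veh libraries held 27.2 CPM of Jun at the lowest, 35.5 at the median and 77.4 at the highest, and WT-aKG libraries 20.8, 26.9 and 34.1 CPM. All treated libraries lay below the vehicle median. The log2 fold change was −0.52 (SE 0.146), with an adjusted p of 0.224 in edgeR, and without WT-Veh-1, the highest library, it was −0.35. Dusp1, a phosphatase that switches off MAP kinases, was at −0.60. The mean log2 CPM of the list overlapped broadly, from 3.75 to 5.40 in WT-Veh and from 3.58 to 5.03 in WT-aKG. In the Notch pathway Notch2, a receptor, was at −0.48 (10.5 to 17.6 CPM in WT-Veh, 7.13 to 12.5 in WT-aKG), while the median of the 17 genes was −0.06.

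Region markers differed between the groups in both directions, none past the adjusted threshold. The 10 thalamus and midbrain markers were all below 0, with a median of −0.55. At an unadjusted p under 0.05, where 3.93% of all genes tested were lower, 4 of these 10 markers were lower. Their mean log2 CPM ran from 1.32 to 4.70 in WT-Veh and from 1.36 to 2.53 in WT-aKG, so that the vehicle group held the highest library. Dsp, which has the smallest p among the hippocampus markers, ran from 0.25 to 5.06 CPM in WT-Veh and from 0.09 to 0.56 CPM in WT-aKG, and that list had 1 of 8 genes above 0 and a median of −0.41. Th, the rate-limiting enzyme of dopamine synthesis, had the smallest p among the thalamus and midbrain markers and a log2 fold change of −1.30 (SE 0.57). Its level was low and the groups overlapped, with 0.39 to 12.2 CPM in WT-Veh and 0.45 to 2.97 CPM in WT-aKG. The 13 hypothalamus markers had a median of −0.49 with 5 above 0, and the 15 cerebral cortex markers one of −0.09 with 4 above 0. The 6 hindbrain markers lay on the other side, with a median of 0.62 and 5 above 0, the exception being Tph2, the rate-limiting enzyme of serotonin synthesis in neurons, at −0.94. The cerebellum markers had a median of 0.08 (12 of 20 above 0) and the striatum markers one of 0.04 (8 of 14 above 0). Without the cerebellum-rich libraries the hindbrain median was −4.30 (1 of 8 above 0). The cerebellum median was then −0.55 (2 of 19) and the striatum median 0.34 (13 of 14). The 12 mural cell and fibroblast markers had a median of −0.14 and the 11 choroid plexus markers one of −0.39, with 3 above 0 in each. The part of these differences in the lower level of Bcl6, Jun and the other immediate early genes was not tested.

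Over all wild-type libraries the main cell classes of brain had medians near 0. The median log2 fold change was −0.02 for 12 neuron markers, −0.05 for 11 inhibitory neuron markers, 0.00 for 14 astrocyte markers, 0.05 for 13 microglia markers and 0.04 for 13 endothelial markers. Oligodendrocyte markers had a median of 0.14 with 15 of 16 above 0. Their mean log2 CPM ran from 5.58 to 8.42 in WT-Veh and from 5.64 to 8.26 in WT-aKG, so the groups overlapped almost wholly. Without the cerebellum-rich libraries the oligodendrocyte median was −0.57, with 0 of 16 above 0. Microglia markers were then at 0.22 (13 of 13 above 0) and endothelial markers at 0.20 (10 of 13). Neuron and astrocyte markers were at −0.08 and −0.10. Mbp, the myelin basic protein, was at 0.40 with an SE of 0.40. The 8 blood cell genes had a median of 0.38, with 7 above 0, and their mean log2 CPM was 5.74 to 7.44 in WT-Veh and 5.72 to 7.74 in WT-aKG.

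The treatment difference of wild types was then set beside that of Gpt2 knockouts, which shares no library with it. In knockouts 0 genes passed an adjusted p under 0.05 in edgeR (0%), with 1973 at an unadjusted p under 0.05 (12.1%), 936 higher (5.76%) and 1037 lower (6.38%). The test of the difference between the genotypes' treatment effects also called 0 genes (0%), with 729 at an unadjusted p under 0.05 (4.48%), and DESeq2 called 0 in it. Mrps36 had a log2 fold change of 0.17 in knockouts, Mrps28 of 0.09, Ndufb3 of 0.19 and Bcl6 of −0.50. Without dm-αKG, knockouts already averaged 32.6 CPM of Mrps28, close to treated wild types (32.3) and above vehicle wild types (23.8). Treated knockouts averaged 34.8 CPM. Vehicle means of knockouts and wild types were 28.0 and 26.0 CPM for Mrps36, and 136.7 and 116.4 for Ndufb3. For Bcl6 they were 16.2 and 15.9 CPM. The part of these starting levels in the smaller knockout differences was not tested. For Mrps28 the wild-type difference exceeded that of knockouts by 0.35 (95% interval 0.08 to 0.61, adjusted p of 0.961 in edgeR), for Mrps36 by 0.24 (−0.0038 to 0.48), for Ndufb3 by 0.18 (−0.08 to 0.43) and for Bcl6 by −0.10 (−0.59 to 0.39).

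Several lists had smaller medians in knockouts than in wild types: 0.11 for complex I, 0.02 for complex IV, 0.11 for ATP synthase, 0.10 for the large mitoribosomal subunit and 0.03 for cytosolic ribosomal proteins. The small mitoribosomal subunit was at 0.13. The protein genes of the mitochondrial genome were at −0.48, with 0 of 13 above 0, against 10 of 13 in wild types. The immediate early genes were alike, with a median of −0.46 in knockouts and 1 of 18 above 0, although Jun was at 0.02 there. Over all genes the log2 fold changes of the genotypes had the same sign in 60.9%, with a Pearson correlation of 0.18 and a Spearman correlation of 0.25 across 16255 genes, which are not independent replicates. The short-minus-long score averaged 0.22 in KO-Veh and 0.37 in KO-aKG, and region markers differed between the knockout groups as well, the thalamus and midbrain markers having a median of 0.97. These differences between lists were not tested.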

How the data were processed

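Per the labels' protocols, cDNA was primed with oligo-dT carrying a barcode and a molecular identifier and cut by tagmentation. The submitters' processing notes name HISAT2 2.2.1, featureCounts 2.0.6 and SAMtools 1.6, with the trimmer Trim Galore 0.6.10, FastQC 0.12.1 and deepTools, and 2 builds, mm10 and mm39. Not given in the sources used here are the build of the counts and the use of strand and molecular identifiers. Per gene, the authors deposited estimated counts as whole numbers and, for 21637 genes, a CPM table, which served only to check that the counts are rounded estimates.

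Counts of 56184 genes were filtered with filterByExpr (16255 kept), scaled by TMM and tested with edgeR 4.0.16 (R 4.3.3) in 1 robust quasi-likelihood fit of 36 libraries in 4 groups, with and without the cerebellum score (mean log2 CPM of 20 markers, prior count 2). Calls needed an adjusted p (Benjamini-Hochberg over all genes) under 0.05. Alternatives were limma-voom 3.58.1, DESeq2 1.42.0, other scaling, filters, covariates and leaving out libraries.

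The genes, the 54 lists and the tests were chosen with earlier results of these data known. Named genes are the 4 given ones, Gpt2, called genes, the 10 smallest p-values and, in each list without a call, the member with the smallest p, predicted genes and sex-linked check genes left out. 1 gene that this rule names is not reported here. No 2 wild-type libraries of a group were copies: the chi-square per gene was 7.75 or more in each pair. The code was tested on simulated data.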

Additional observations from a re-analysis of the deposited data

Results flagged for a closer look

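In 5 of 132 sets of values 1 library stood apart from the rest of its group by Dixon's criterion, and chance alone gives about 1 in 20. Each set was 1 measure in WT-Veh or in WT-aKG. The measures were the log2 CPM of each named gene, total counts, the percentage of mitochondrial rRNA, the cerebellum score and the short-minus-long score. 4 of the 5 lie in WT-Veh-1. That library held 77.4 CPM of Jun (group median 35.5), 145 CPM of Sdhd (92.1) and 374 CPM of Tpi1, a glycolytic enzyme (220), each the highest of its group, and 55.4 CPM of Cyb5a (78.8), the lowest. WT-Veh-5 held 114 CPM of Pmch, the precursor of melanin-concentrating hormone of the hypothalamus, against a group median of 0.68.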

How the results depend on the processing

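The count of 0 genes called without covariates was the same under every scaling, filter, block and left-out library tried and in limma-voom. It was 23 with 5 region scores as covariates and 90 with DESeq2, 12 genes being called in both; the cause was not tested. The single call with the cerebellum score became 0 without scaling factors, without the low-count filter, with the 18 wild-type libraries alone, with a replicate block, with the score of sex genes, without the cerebellum-rich libraries and with the length score, and 223 with DESeq2. Leaving out 1 library gave 0 to 3 calls (0 without WT-Veh 2, 3, 6, 7 or 8 or WT-aKG 3, 5 or 7, 3 without WT-Veh-4 and 2 without WT-aKG-4). The difference between genotypes stayed at 0 calls in each setting that could give one (the wild types alone cannot). Correlations of same-numbered wild-type libraries ran from −0.65 to 0.67, with 3 of 8 over 0.1 and 2 of 8 matching best with their own number. The pieces differed in region, which also moves such correlations. They therefore cannot decide whether replicate numbers pair the libraries. The replicate block gave 0 calls in each of the 3 tests.

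Log2 fold changes reversed for Pcp2, a cerebellar marker (−0.32 with the cerebellum score, −0.25 with 5 region scores, −2.13 without the cerebellum-rich libraries, −0.27 in limma-voom). They also reversed for Gpt2 (−0.038), Mbp (−0.54) and S100a8 (−0.34) without the cerebellum-rich libraries, and for Pmch without WT-Veh-5 (0.24, the highest of a range from −3.73 on leaving out 1 library). With the length score they reversed for Gpt2 (−0.10), mt-Nd3 (−0.56), Slc25a12 (0.0065), Kdm5b (0.029), Tpi1 (0.035) and C1qb (−0.12); the causes were not tested. Over 33 settings Mrps36 ranged from 0.31 to 0.42 (called in 2), Mrps28 from 0.33 to 0.49 (3), Ndufb3 from 0.27 to 0.41 (2) and Bcl6 from −0.65 to −0.32 (1).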

Other observations

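Lists of metabolism outside the mitochondrial core lay near 0 in treated wild types. The 23 genes of cholesterol synthesis had a median log2 fold change of 0.07 with 16 above 0, led by Tm7sf2, a sterol reductase, at 0.22. The 14 genes of fatty acid synthesis had a median of 0.06, although Fasn, the synthase itself, was at −0.21. Without the cerebellum-rich libraries the cholesterol median was −0.11 (7 of 23 above 0) and the fatty acid median −0.14 (5 of 14). Genes of ketone use and fatty acid oxidation had a median of 0.05 (12 of 16 above 0), with Etfb, a subunit of the electron transfer flavoprotein, at 0.23. The 21 glycolysis genes had a median of −0.02, and Tpi1, with the smallest p among them, was at −0.13. The 18 HIF target genes had a median of 0.00 with 9 above 0, and Higd1a, a small protein of the inner mitochondrial membrane, was at 0.20.

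Stress and timing lists were slightly below 0. ATF4 target genes had a median of −0.10 (14 of 34 above 0), with Cars1, the cysteinyl-tRNA synthetase, at −0.29. Cytosolic heat shock genes had 1 of 12 above 0 and a median of −0.12, with Hsp90ab1 at −0.30 (1202 ± 228 CPM in WT-Veh, SD, n = 10, and 974 ± 115 CPM in WT-aKG, SD, n = 8). Circadian clock genes had a median of −0.10 (4 of 19 above 0) with Per1 at −0.32, glucocorticoid-induced genes one of −0.05 and NRF2 target genes one of −0.06. In the last of these lists Prdx1, a peroxide-reducing enzyme, was at 0.36, from 305 to 383 CPM in WT-Veh and from 338 to 642 CPM in WT-aKG. Interferon-stimulated genes had a median of 0.00 in wild types and 0.38 in knockouts. No gene of these lists passed an adjusted p under 0.05 in edgeR in wild types.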
